A study of Mus musculus with 8 samples.

Results

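Marker genes of the hippocampal fields were examined on all 8 arrays of a comparison of normal mice with mice that model mucopolysaccharidosis VII, a storage disease caused by loss of beta-glucuronidase in lysosomes. The 10 genes were Wfs1, Pou3f1, Man1a and Lefty1 for field CA1, Neurod6 for the pyramidal cells of CA1 and CA3, Bok and Coch for CA3, Pcp4 for CA2 and the dentate gyrus, and Prox1 and Dsp for the dentate gyrus. They were chosen by name, with earlier results of these data known. All 14 probe sets that carry 1 of these symbols alone were taken, out of 22626 probe sets and 12393 genes. Each array held the hippocampus of the right hemisphere of 1 mouse. The 4 normal mice carried 1 copy of the mps allele of Gusb (mps/+) and the 4 mutant mice carried 2 copies (mps/mps), both on a B6.C-H2-Kbm1/ByBir strain background, so the normal group was heterozygous and not wild type. Both groups were bred in 1 colony and housed together, and both held 2 females and 2 males. By replicate number, normals 1 to 4 were 38.3, 25.6, 19.6 and 14.6 weeks old, and mutants 1 to 4 were 38.3, 25.6, 25.6 and 19.6 weeks old.

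The hippocampus is built as a chain of fields. Granule cells of the dentate gyrus take in signals from the entorhinal cortex and pass them to the pyramidal cells of CA3, which in turn drive those of CA1, and the small field CA2 lies between them. Each field expresses transcription factors and cell surface or signalling genes that the others lack or hold at lower levels, and such genes are used to tell the fields apart in tissue sections. Several of them are also expressed outside the hippocampus: Wfs1 and Pcp4 in the striatum, and Pcp4 in the thalamus. In a dissected tissue, fewer cells of a type and less RNA per cell cannot be told apart.

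Of the 10 genes, 0 passed the comparison of mutant with normal mice in limma at an adjusted p of 0.05, which 0.105% of all genes passed (13 of 12393). At an unadjusted p under 0.05 the count was 0 of the 10, against 6.53% of all genes, and the values of both groups overlapped for each of the 10, where 3.88% of all genes did not overlap. The median of the 10 differences, mutant minus normal, was -0.21 on the log2 scale, against 0.01 over all genes, with 6 means lower and 4 higher in mutants, where 47.5% of all genes had lower means. Over all probe sets, 0 of the 14 passed in limma, against 0.0884% of all probe sets, and 0 at an unadjusted p under 0.05, against 5.95%. Animals of the same group differed widely in these genes. By SD within groups, Neurod6 ranked 6 and Dsp 25 among 12393 genes, and the share of all genes with a larger SD ran from 0.0403% for Neurod6 to 12.7% for Bok. Within-group SDs ran from 0.51 for Bok to 2.53 for Neurod6 on the log2 scale.

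**Figure D1:**
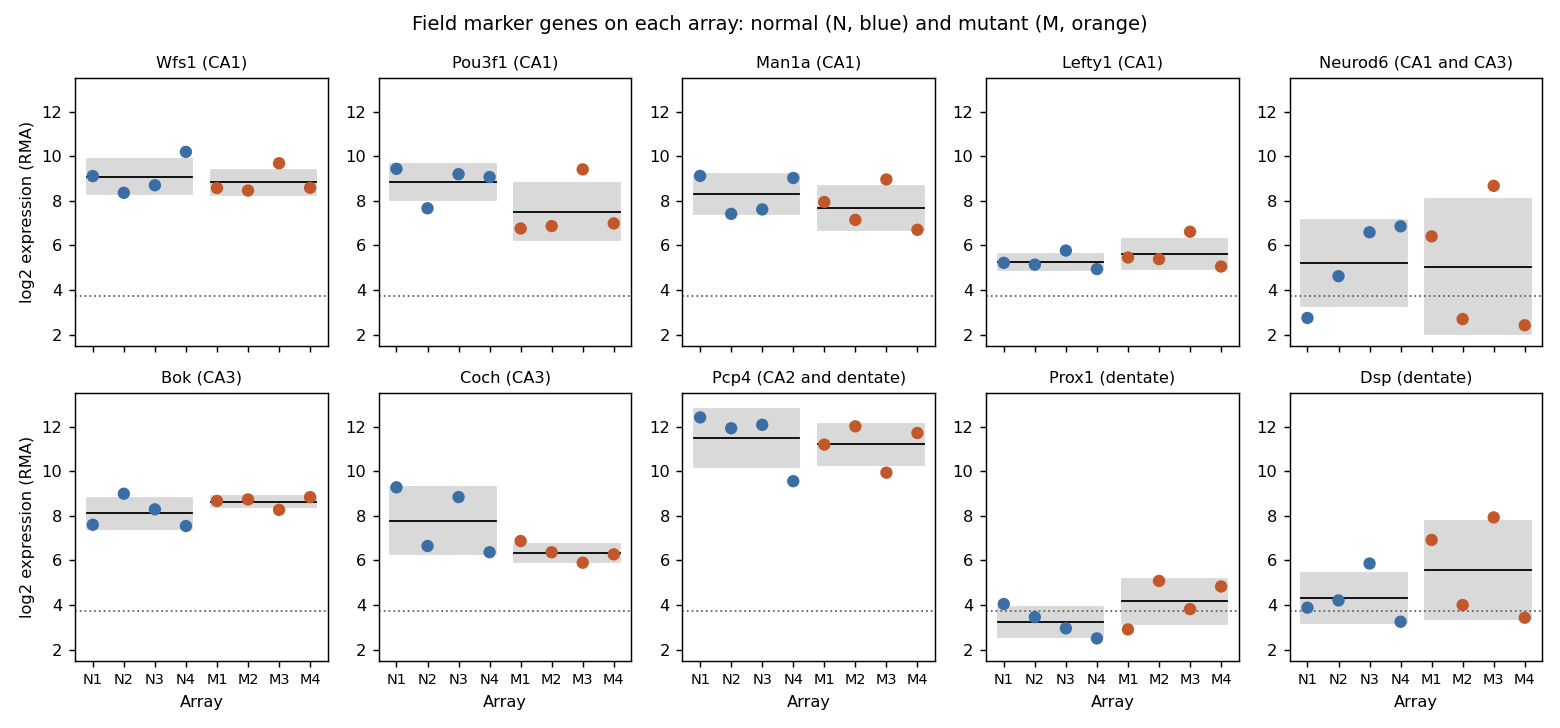
Each panel plots 1 gene, with the array on the x axis (N normal, blue; M mutant, orange) and log2 expression on the y axis; black lines are group means, grey bands are mean ± SD over 4 arrays, and the dotted line at 3.72 is the highest value of any bacterial control probe set. Points of the same colour lie far apart in most panels, most widely for Neurod6, and both colours overlap in all 10.

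The arrays are all labelled hippocampus, but Neurod6, a defining marker of its pyramidal cells, was not detected on all of them. Bacterial transcripts (27 probe sets) had values up to 3.72 (median 2.29), which was taken as the level of an absent transcript. Neurod6 lay within that range on 3 of the 8 arrays, normal 1 and mutants 2 and 4. Markers of neighbouring regions, taken from lists chosen for this comparison, had their own patterns across the same arrays. The mean of 8 measured thalamic and habenular genes of 12 listed was 6.72 to 9.28 in normals and 6.50 to 9.61 in mutants, highest in mutants 2 and 4 and normal 2, and its gene Lef1 lay within the range of absent transcripts on normal 4 and mutant 3. The mean of 6 measured striatal genes of 11 was 7.44 to 10.4 in normals, highest in normals 1, 3 and 4, and 6.595 to 7.70 in mutants, with none of the 6 at the level of absent transcripts on any array. The mean of 9 measured cortical layer genes of 10 was 6.51 to 7.01 in normals and 6.14 to 7.11 in mutants, highest in mutant 3 and normals 3 and 4, which were also the 3 highest arrays for Neurod6. Its gene Fezf2, a transcription factor of deep cortical layers picked after its values were seen, was at 4.44, 4.06, 6.22 and 6.45 in normals 1 to 4 and at 4.58, 3.42, 7.45 and 3.26 in mutants 1 to 4. The genes of this list did not share 1 pattern. Lmo4 and Lamp5 had the same 3 highest arrays as Fezf2, but Rorb and Rspo1 were lowest in mutant 3 (5.21 and 4.69), and Cux2 was lowest in normal 4 (4.54). The mean of 9 measured choroid plexus genes of 10 was 4.39 to 5.54 in normals and 5.38 to 8.23 in mutants, highest in mutants 1 and 3, where 0 of the 9 were within the range of absent transcripts, against 2 or 3 of the 9 on each other array. The mean of 7 measured hypothalamic peptide genes of 9 was highest in normal 2 (9.63), mutant 1 (9.22) and mutant 4 (8.25) and was 5.89 to 6.64 on the other 5 arrays. Pan-neuronal genes (10 of 10 measured) had means of 9.60 to 10.3 in normals and 9.79 to 10.1 in mutants. Control probe sets for the 3 prime end of actin and Gapdh exceeded those for the 5 prime end by 3.58 on average in normal 1, a measure of RNA quality, and by 0.22 to 0.75 on the other 7 arrays. The part of these differences in the results for the field markers was not tested. Values below that leave arrays out or take a list as a covariate only describe how the results move.

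**Figure D2:**
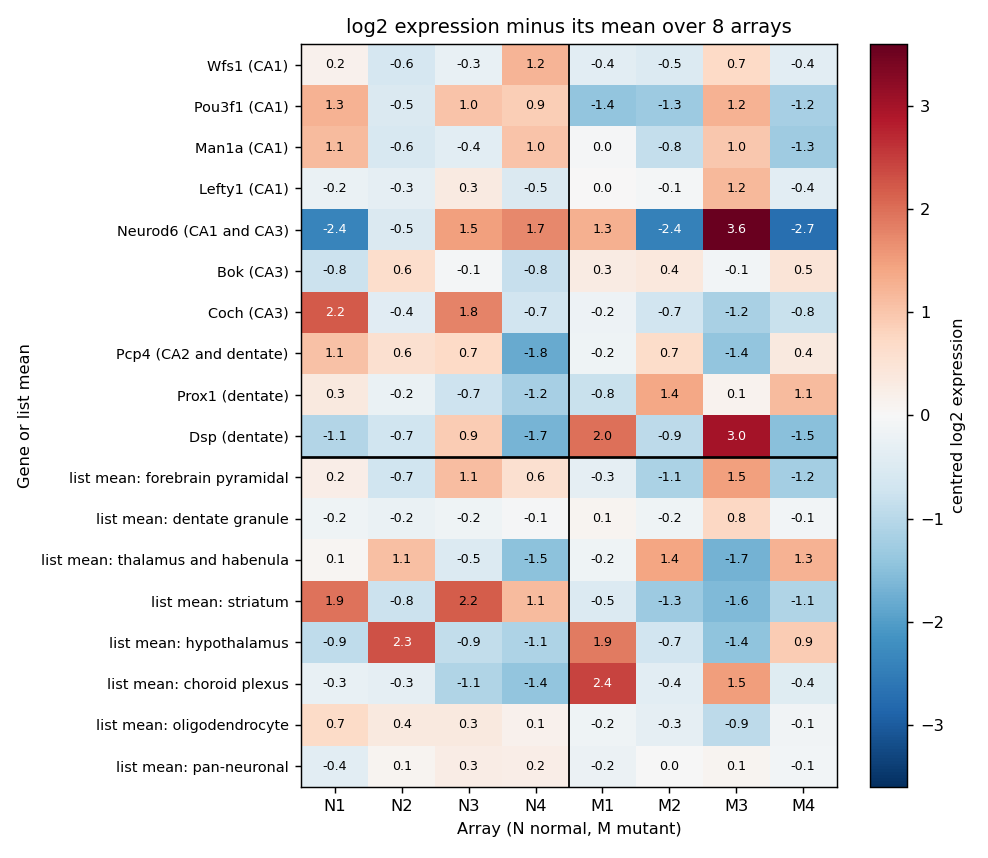
Rows are the 10 field markers (above the line) and the means of 8 marker lists (below it), columns are the arrays, and colours and numbers give log2 expression minus the row's mean over 8 arrays. Neurod6 and Dsp are highest in mutant 3, Coch is highest in normals 1 and 3 as is the striatal mean, and Prox1 is highest in mutants 2 and 4, as is the thalamic mean.

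The sequences just upstream of the start sites are shown for Wfs1 and Man1a, whose values across the arrays were the most alike of any pair of members, and for Neurod6, whose values varied most. They are the 250 bases before the start site given by RefSeq for build GRCm38.p6, on the gene's own strand, at chr5:36988983-36989232 (minus strand) for Wfs1, chr10:54075738-54075987 (minus) for Man1a and chr6:55681264-55681513 (minus) for Neurod6. Capitals mark matches to CAGATG or its reverse complement CATCTG, a form of the E-box that neuronal basic helix-loop-helix factors such as the NeuroD family bind.
Wfs1: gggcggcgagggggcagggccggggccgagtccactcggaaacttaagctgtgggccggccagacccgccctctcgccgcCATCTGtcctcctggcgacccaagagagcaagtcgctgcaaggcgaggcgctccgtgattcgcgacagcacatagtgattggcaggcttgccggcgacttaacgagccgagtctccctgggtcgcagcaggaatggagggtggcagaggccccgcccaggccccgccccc
Man1a: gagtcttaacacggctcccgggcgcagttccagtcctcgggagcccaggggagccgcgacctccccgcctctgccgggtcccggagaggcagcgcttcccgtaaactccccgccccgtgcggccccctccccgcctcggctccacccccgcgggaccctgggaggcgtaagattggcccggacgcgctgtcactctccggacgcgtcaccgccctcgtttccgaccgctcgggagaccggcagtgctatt
Neurod6: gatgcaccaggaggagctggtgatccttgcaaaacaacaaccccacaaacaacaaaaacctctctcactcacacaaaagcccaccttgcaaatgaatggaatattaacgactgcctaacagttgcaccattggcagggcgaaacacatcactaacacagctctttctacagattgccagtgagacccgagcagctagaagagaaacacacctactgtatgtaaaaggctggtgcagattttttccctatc
Entries were found for 8 of the 10 genes, with a second start site for Prox1. The motif occurred in 2 of these 9 sequences, Wfs1 at position -170 from the start site and 1 of the 2 Prox1 entries at -179, while 14.4% of the 32841 upstream sequences of the same length held it. Its absence upstream of Man1a and Neurod6 says only that these letters do not occur in the window. GC content was 69.6% upstream of Wfs1, 72.4% upstream of Man1a and 46.0% upstream of Neurod6.

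Mutant 3 was high for all 4 CA1 markers, while they ranked the normal arrays differently: normal 4 was the highest array for Wfs1 and the lowest for Lefty1. Pou3f1, a POU-domain transcription factor gene, was at 9.44, 7.67, 9.20 and 9.07 in normals 1 to 4 and at 6.76, 6.87, 9.42 and 6.99 in mutants 1 to 4. The other 3 mutants lay below all normals, and mutant 3 lay among the highest normals. Its means were 8.85 ± 0.80 in normals and 7.51 ± 1.27 in mutants (SD, n = 4 each), a difference of -1.34 ± 0.64 (SE; 95% interval -2.78 to 0.11; limma adjusted p = 0.789). Its second probe set, at lower values, was at 5.48 to 7.05 in normals and 5.10 to 7.08 in mutants, with a difference of -0.48 ± 0.50 (SE; limma adjusted p = 0.930 over all probe sets). There normal 1, at 5.88, lay below normals 3 and 4, at 7.05 and 6.09. Without mutant 3 the difference of the first probe set was -1.97. Without normals 1 and 3 it was -0.86, and as these were its highest normals, leaving them out had to bring the means closer.

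Man1a, which encodes a Golgi mannosidase that trims N-linked glycans, was at 9.13, 7.42, 7.62 and 9.03 in normals 1 to 4 and at 7.95, 7.15, 8.97 and 6.70 in mutants 1 to 4. The 3 highest values, in normals 1 and 4 and mutant 3, came from both groups. The difference was -0.61 ± 0.57 (SE; 95% interval -1.90 to 0.69; limma adjusted p = 0.911), and its second probe set gave -0.75 ± 0.61 (SE) with the lowest values, 4.56 and 4.41, again in mutants 2 and 4. On that probe set normal 4 and mutant 3 were again high (7.23 and 6.73), but normal 1, at 6.24, lay below mutant 1, at 6.29. Leaving out 1 animal gave the first probe set -1.03 without mutant 3 and -0.28 without mutant 4. Wfs1, the gene of the endoplasmic reticulum membrane protein wolframin, was at 9.12, 8.36, 8.70 and 10.2 in normals 1 to 4 and at 8.58, 8.47, 9.69 and 8.59 in mutants 1 to 4. Normal 4 and mutant 3 were highest, and the other 3 mutants lay between 8.47 and 8.59. The difference was -0.27 ± 0.42 (SE; 95% interval -1.22 to 0.69; limma adjusted p = 0.947), and it was 0.10 without normal 4. Lefty1, which encodes a secreted inhibitor of Nodal signalling, was at 5.22, 5.14, 5.77 and 4.94 in normals 1 to 4 and at 5.46, 5.39, 6.62 and 5.06 in mutants 1 to 4. It was highest in mutant 3, and no other array exceeded 5.77. The difference was 0.36 ± 0.33 (SE; 95% interval -0.40 to 1.12; limma adjusted p = 0.911), and without mutant 3 it was 0.03.

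Neurod6, a basic helix-loop-helix transcription factor gene of forebrain pyramidal neurons, had the widest range of the 10. It was at 2.75, 4.62, 6.59 and 6.86 in normals 1 to 4 and at 6.41, 2.70, 8.68 and 2.42 in mutants 1 to 4. Mutant 3 was highest, and normal 1 and mutants 2 and 4 did not exceed that control. Both groups thus held arrays with and without a signal above absent transcripts. Among normals this array was normal 1 alone, the array with the 3 prime excess of 3.58. Other forebrain pyramidal genes, picked after their values were seen, were not absent there, with Hpca at 11.4, Nrgn at 10.4 and Crym at 10.2. Neurod2, at 5.65, was lowest on that array. The part of RNA quality in these values was not tested. The group means were 5.20 ± 1.92 and 5.05 ± 3.03 (SD, n = 4 each), a difference of -0.16 ± 1.501 (SE; 95% interval -3.58 to 3.27; limma adjusted p = 0.994). Values within the range of absent transcripts entered these means as they were, here and for Dsp and Prox1. The sign of this difference turned to positive without normal 3, normal 4, mutant 2 or mutant 4, up to 0.72, and it was -1.36 without mutant 3 and -2.01 with array weights.

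The CA3 markers did not share a pattern with each other. Coch, which encodes the extracellular matrix protein cochlin, was at 9.28, 6.65, 8.85 and 6.37 in normals 1 to 4 and at 6.87, 6.37, 5.90 and 6.27 in mutants 1 to 4. Normals 1 and 3 stood above all other arrays, and the other 2 normals lay among the mutants. The difference of -1.43 ± 0.65 (SE; 95% interval -2.92 to 0.05; limma adjusted p = 0.773) was the largest of the 10 in size. Without normals 1 and 3, the arrays with the highest striatal means (10.1 and 10.4), it was -0.16, and as these arrays also held the highest Coch values, leaving them out had to shrink it. With the striatal mean as a covariate it was 0.45 ± 0.74 (SE). That mean itself differed between the groups, at 7.44 to 10.4 in normals and 6.595 to 7.70 in mutants. The covariate thus overlaps with genotype, and the fit cannot separate them well. Bok, a BCL2-family gene linked to cell death, was at 7.604, 8.995, 8.29 and 7.55 in normals 1 to 4 and at 8.67, 8.74, 8.27 and 8.84 in mutants 1 to 4. The mutants lay close together (SD 0.25, n = 4), while normals 1 and 4 were lowest (SD 0.68, n = 4). The difference was 0.52 ± 0.32 (SE; 95% interval -0.20 to 1.24; limma adjusted p = 0.861), and it was -0.12 ± 0.47 (SE) with the striatal mean as a covariate.

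Pcp4, which encodes a small calmodulin-binding peptide, was at 12.4, 11.9, 12.1 and 9.56 in normals 1 to 4 and at 11.2, 12.02, 9.94 and 11.7 in mutants 1 to 4. Normal 4 and mutant 3 were lowest, and these were the arrays with the lowest thalamic means, 6.72 and 6.50. The means were 11.5 ± 1.31 and 11.2 ± 0.92 (SD, n = 4 each), a difference of -0.28 ± 0.67 (SE; 95% interval -1.82 to 1.26; limma adjusted p = 0.966). Leaving out normal 1 gave 0.03, and leaving out mutant 3 gave 0.15.

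The dentate markers Dsp and Prox1 were high on different arrays. Dsp, the gene of the desmosomal protein desmoplakin, was at 3.88, 4.21, 5.86 and 3.25 in normals 1 to 4 and at 6.92, 4.0, 7.93 and 3.43 in mutants 1 to 4. Mutant 3 was highest, followed by mutant 1 and normal 3, while normal 4 and mutant 4 did not exceed that control. Mutants 1 and 3 were also the arrays with the highest choroid plexus means, 8.23 and 7.30. Among normals the orders differed: normal 3, highest for Dsp, had a choroid plexus mean of 4.72, below normals 1 and 2 (5.54 and 5.47). The difference was 1.27 ± 1.03 (SE; 95% interval -1.08 to 3.63; limma adjusted p = 0.907) on a probe set whose name marks sequence shared with other transcripts, and 1.05 ± 0.81 (SE; limma adjusted p = 0.918 over all probe sets) on another, which was at 6.59 and 7.199 in mutants 1 and 3. The difference of the first probe set was 0.48 without mutant 3, 1.99 without mutant 4 and -0.36 with array weights. The last Dsp probe set did not exceed the highest absent control on any array (2.58 to 3.05).

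Prox1, a homeobox gene that marks dentate granule cells, had a low signal throughout. It was at 4.04, 3.46, 2.95 and 2.50 in normals 1 to 4 and at 2.90, 5.08, 3.82 and 4.83 in mutants 1 to 4, and 4 of the 8 values lay within the range of absent transcripts. Its highest values were in mutants 2 and 4, where the thalamic means were 9.61 and 9.45, and where Neurod6 was at 2.70 and 2.42. Normal 2, with a thalamic mean of 9.28, held Prox1 at 3.46, within the range of absent transcripts. The difference was 0.92 ± 0.51 (SE; 95% interval -0.24 to 2.08; limma adjusted p = 0.843), with 0.61 to 1.34 when 1 animal was left out. Without normal 2, mutant 2 and mutant 4, the arrays with the highest thalamic means, it was 0.19, and as both mutants held the highest Prox1 values, leaving them out had to lower the mutant mean.

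**Figure D3:**
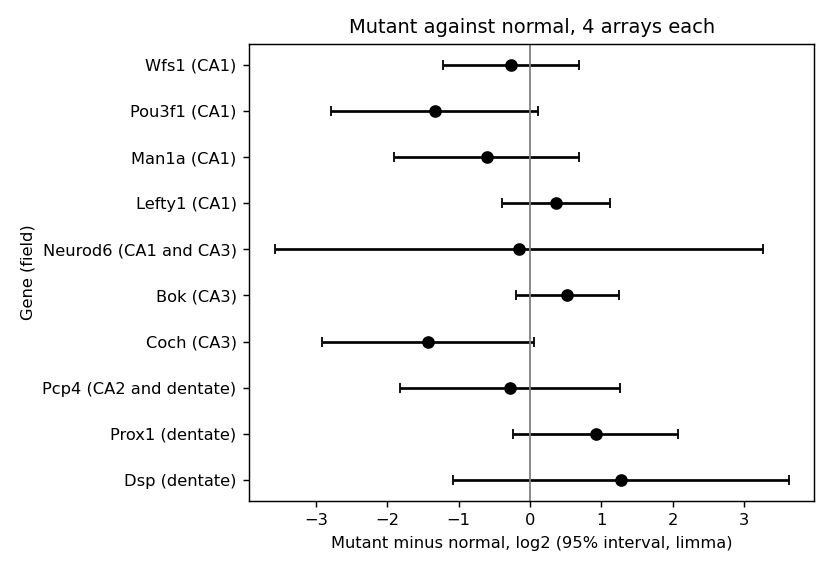
The x axis is the difference in mean log2 expression, mutant minus normal, for each of the 10 genes on the y axis; points are estimates and bars are 95% intervals from limma with 4 arrays per group. All 10 intervals include 0, and the interval of Neurod6, -3.58 to 3.27, is the widest.

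The mean of the 4 CA1 genes reached 8.67 in mutant 3, while the 3 other mutants lay at 6.83 to 7.19 and the normals at 7.15 to 8.31. The mean of the 2 dentate genes was 5.87 in mutant 3, 4.13 to 4.91 in the other mutants and 2.87 to 4.41 in normals, but only Dsp was highest there (7.93), while Prox1 in mutant 3 was 3.82, below mutants 2 and 4. The mean of the 2 CA3 genes was lowest among mutants in mutant 3, at 7.09, with 7.55 to 7.77 in the others and 6.96 to 8.57 in normals. Mutant minus normal, the field means differed by -0.46 for CA1, -0.46 for CA3 and 1.10 for the dentate genes, beside SDs of 0.53 and 0.85 for CA1, 0.74 and 0.29 for CA3, and 0.65 and 0.75 for dentate genes in normals and mutants. Leaving out 1 animal gave -0.88 to -0.27 for CA1, -0.79 to -0.25 for CA3 and 0.76 to 1.34 for the dentate genes. The CA3 mean joined genes that differed in opposite directions, Coch by -1.43 and Bok by 0.52, so it does not describe a shared change. Within the CA1 mean, Lefty1 (0.36) likewise went against the other genes. Of the dentate genes, Prox1 lay within the range of absent transcripts on 4 of the 8 arrays and Dsp on 2. No test was made of these means, because the members were chosen with results of these arrays known.

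**Figure D4:**
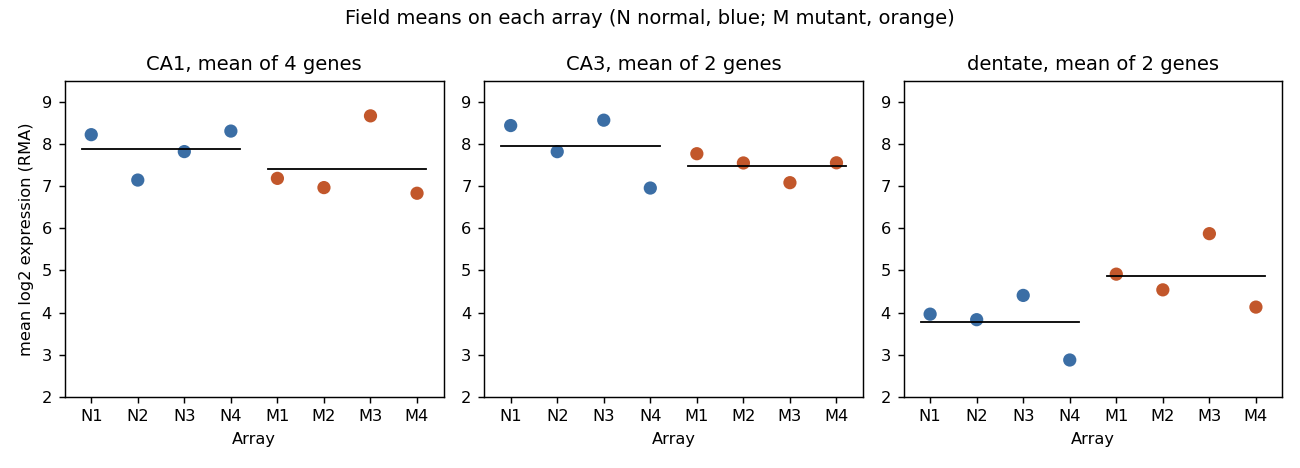
Each panel gives the mean log2 expression of a field's members (y axis) on each array (x axis; N normal, blue; M mutant, orange), with black lines at the group means. Mutant 3 is the highest array for CA1 (8.67) and for the dentate genes (5.87), the latter through Dsp, while CA3 is highest in normals 1 and 3 (8.44 and 8.57).

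Genes assigned to the same field were not always the closest to each other across the arrays. Likeness was measured as the root mean square difference between the log2 values of each pair, after each gene was centred on its mean over the 8 arrays. Values were not scaled, so this distance grows with the spread of a gene and is small for any genes that vary little. Among the CA1 genes the distance ran from 0.52 for Wfs1 and Man1a, the smallest of all pairs, to 1.06 for Pou3f1 and Lefty1. Lefty1 was at 0.71 from the CA3 gene Bok and at 0.72 from Wfs1, its closest CA1 gene. Lefty1 and Bok had the smallest within-group SDs of the members (0.54 and 0.51), so their small distance does not show a shared pattern. The CA3 pair Bok and Coch differed by 1.48 and the dentate pair Prox1 and Dsp by 2.05. Prox1 was closer to Bok (0.81) and to Pcp4 (0.97) than to Dsp, and Pcp4 was at 0.94 from Bok and 0.99 from Coch. As a description of these 8 arrays, the genes outside the members closest to the CA1 mean were Gldc, a glycine cleavage enzyme gene (0.15), Mmd (0.21), Wasf1, which encodes an actin regulator (0.23), and Klhl2 (0.25). Gldc was at 7.28 in mutant 3 and 7.12 in normal 1, and at 5.46 to 6.17 in the other mutants. The genes closest to the dentate mean were Ptgds, a prostaglandin D synthase gene (0.42), Islr (0.43), the transporter gene Slc6a20a (0.44) and 1110008P14Rik (0.45). These distances were larger than those for the CA1 mean, and Ptgds, at 13.0 in mutant 3 and 10.2 in normal 4, is known from the meninges and choroid plexus.

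Animals of the same age gave differences in both directions. Mutant 1 minus normal 1, both at 38.3 weeks, was 3.04 for Dsp, -2.68 for Pou3f1 and -2.41 for Coch, and Neurod6 was at 6.41 in the mutant and within the range of absent transcripts in the normal. At 25.6 weeks, mutant 3 minus normal 2 was 4.06 for Neurod6 and 3.73 for Dsp. Mutant 2 minus the same normal was -0.21 for Dsp, and Neurod6 was within the range of absent transcripts in this mutant and at 4.62 in the normal. The 2 mutants of that age, both male like normal 2, thus lay on opposite sides of it for both genes. At 19.6 weeks, mutant 4 (female) minus normal 3 (male) was -2.57 for Coch. Neurod6 and Dsp were within the range of absent transcripts in mutant 4 and at 6.59 and 5.86 in normal 3, and Prox1 was at 4.83 in mutant 4 and within that range in normal 3. Of the 10 genes, Coch alone was lower in the mutant of each of these 4 comparisons, by 0.28 to 2.57 on the log2 scale. The share of all genes lower in each was not counted. Normal 2 served for both mutants of its age. Normal 4 had no partner of its age, and its Coch value, 6.37, lay within the range of the mutants (5.90 to 6.87). With 1 normal per age these same-age differences have no test.

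In limma with genotype as a term, 0 of the 10 genes passed the comparison of males with females at an adjusted p of 0.05 and 0 at an unadjusted p under 0.05, where 0.0323% and 1.95% of all genes did. The largest differences, male minus female, were 1.13 ± 1.02 (SE) for Dsp and 1.04 ± 1.56 (SE) for Neurod6. The genotype difference itself was compared between the sexes by an interaction term with 2 animals per cell, and 0 of the 10 genes passed, as did 0% of all genes. At an unadjusted p under 0.05 there were 2 of the 10, against 11.5% of all genes. These were Man1a (2.29 ± 0.89 SE, limma adjusted p = 0.412) and Bok (-1.32 ± 0.39 SE, limma adjusted p = 0.343). For Man1a the male mutants were 7.15 and 8.97 against male normals of 7.42 and 7.62, and the female mutants were 7.95 and 6.70 against female normals of 9.13 and 9.03.

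Other genes of the same fields, from 5 lists for CA1, CA2, CA3, dentate granule cells and forebrain pyramidal cells, gave 0 of 41 measured genes past the threshold in limma and 4 at an unadjusted p under 0.05 (Sostdc1, Tgfb2, Sema5a and Igfbp5), where 0.105% and 6.53% of all genes did. Of the 41, 23 had higher and 18 lower means in mutants, with a median of 0.04, and the groups did not overlap for 2, where 3.88% of all genes did not. Mutant 3 held the highest value for 16 of the 41 genes (39.0%) and for 3 of the 10 members, against 9.74% of all genes, while normal 1 was highest for 4.88% of the 41, for 4 of the 10 members and for 25.6% of all genes. Some members of these lists lay at the level of absent transcripts on all arrays, Fgf2 and Rfx3.

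Of 11 measured dentate granule genes, 9 had higher and 2 lower means in mutants and 0 passed (median 0.14). The lactase gene Lct, known in the brain from granule cells, was at 3.66, 4.35, 5.07 and 4.02 in normals 1 to 4 and at 5.64, 3.46, 6.95 and 4.41 in mutants 1 to 4, with mutants 3 and 1 and normal 3 highest, as for Dsp. Tdo2, a tryptophan dioxygenase gene, was at 6.28 in mutant 3 and at 2.34 to 4.41 on the other arrays. Lct and Tdo2 were picked after their values were seen. Both are dim, with Lct within the range of absent transcripts in normal 1 and mutant 2, and Tdo2 in normals 1 and 2 and mutants 2 and 4. Mutant 3 was the highest array for 5 of the 11 genes, while Calb1, with the highest mean of the list, was lowest there (10.35, against 10.58 to 11.1 on the other arrays). The 3 dentate genes with the smallest p were Sema5a, a semaphorin gene (0.61 ± 0.22 SE, limma adjusted p = 0.685), Igfbp5, which encodes a binding protein of insulin-like growth factors (0.72 ± 0.27 SE, adjusted p = 0.687), and the matrix gene Npnt (0.86 ± 0.40 SE, adjusted p = 0.776). Igfbp5 was highest in mutants 2, 4 and 3, at 11.1, 11.1 and 11.0, and Npnt was highest in mutant 3, at 7.50.

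Of 5 measured CA1 genes, 1 had a higher and 4 lower means in mutants (median -0.15, 0 passed), and the smallest p were for Lypd1 (-0.60 ± 0.39 SE), Ndst4 (-0.15 ± 0.25 SE) and Kcnh7 (-0.08 ± 0.15 SE). Kcnh7 was at 3.40 to 4.01, within the range of absent transcripts in normal 4 and mutants 2, 3 and 4, and Ndst4 was just above that range, at 3.85 to 4.90. Ccn3, a secreted matricellular protein gene also called Nov, was picked after its values were seen. It was at 5.25, 5.46, 7.87 and 8.97 in normals 1 to 4 and at 5.18, 5.25, 9.73 and 5.38 in mutants 1 to 4, with mutant 3 and normals 4 and 3 far above the other 5 arrays. Of 8 CA3 genes, 7 had higher means (median 0.21, 0 passed), with Tgfb2, a growth factor gene, at 4.74 to 5.95 in normals and 6.25 to 7.51 in mutants. Its groups did not overlap (1.26 ± 0.34 SE, limma adjusted p = 0.434), and mutant 3 was highest. Galnt3 (0.30 ± 0.18 SE) and Iyd (0.52 ± 0.36 SE) followed.

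Of 6 CA2 genes, 3 had higher and 3 lower means (median 0.06, 0 passed). Sostdc1, a secreted inhibitor of BMP and Wnt signals, was at 5.63, 5.53, 4.46 and 5.02 in normals 1 to 4 and at 8.89, 5.65, 7.40 and 5.68 in mutants 1 to 4 (1.75 ± 0.69 SE, limma adjusted p = 0.717). Its groups did not overlap, and mutants 1 and 3, with the highest choroid plexus means, were far above mutants 2 and 4, which were at 5.65 and 5.68 against a highest normal of 5.63. Stard5 (-0.37 ± 0.28 SE) and Cacng5 (0.37 ± 0.46 SE) followed. Of 11 forebrain pyramidal genes, 3 had higher and 8 lower means (median -0.32, 0 passed). Bcl11b, a transcription factor gene also expressed by striatal projection neurons, was at 7.62, 5.85, 9.35 and 8.32 in normals 1 to 4 and at 5.18, 4.43, 8.81 and 4.62 in mutants 1 to 4 (-2.03 ± 1.06 SE, limma adjusted p = 0.834). Crym, which encodes a thyroid hormone binding protein, was at 5.70 to 10.8 in normals and 4.54 to 10.8 in mutants (-2.14 ± 1.56 SE, limma adjusted p = 0.892), and Camk2a, a kinase gene read by a dim probe set, at 3.37 to 5.97 and 3.29 to 4.02. Bcl11b and Crym were low in normal 2 and mutants 1, 2 and 4 and high in normals 1, 3 and 4 and mutant 3, the split seen for Pou3f1.

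**Figure D5:**
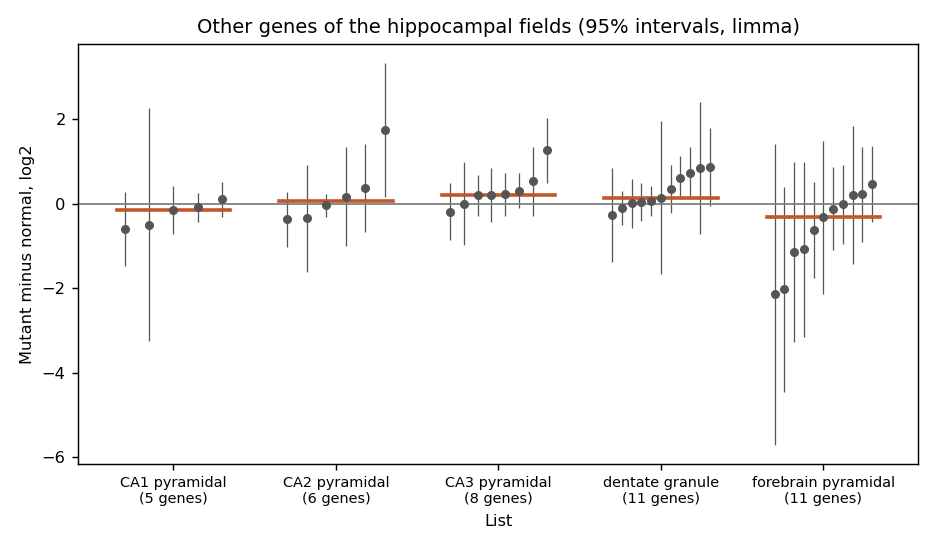
Each point is 1 gene of 5 lists (x axis), with its difference in log2 expression, mutant minus normal, on the y axis and its 95% interval from limma as a bar; orange lines are list medians, -0.15, 0.06, 0.21, 0.14 and -0.32 from left to right. No gene passed the threshold, and Sostdc1 and Tgfb2 are the highest points of the CA2 and CA3 lists.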

How the data were processed

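Hippocampal RNA of 8 mice was hybridised to 1 Affymetrix mouse array per animal. The authors summarised each probe set with RMA and deposited the log2 values, and GCOS 1.4 is also named, per the submitters' processing notes. A genome build for the probe sets is not given in the sources used here. Scanner files were not used here. RMA makes the arrays' distributions alike (medians 6.09 to 6.17), and it compresses changes of dim probe sets.

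Of 22690 probe sets, 64 were controls. Gene names came from the platform annotation (20380 probe sets with 1 symbol, 691 with several, 1555 with none), updated through the GRCm38.p6 gene table (20351 matched). A gene was read by its probe set with the highest mean. The limma package (3.58.1, R 4.3.3; lmFit, eBayes) was used for each comparison, with Benjamini-Hochberg adjustment over 12393 genes, or over 22626 probe sets where stated, and a threshold of 0.05. Steps were tested on simulated data, and figures were drawn with Python 3.11.15 and matplotlib 3.10.9. The labels do not pair animals. Precision is limited by the number of animals.

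The members and lists were chosen with earlier results of these data known. Named genes were the 10 members, the 3 genes with the smallest p of each field list, and the 4 genes outside the members closest to the CA1 mean and to the dentate mean (mean of at least 6 and an SD of at least 50% of that mean's). Genes picked after their values were seen are marked. Alternatives covered the choice of probe set, dim genes, normalization, the variance model, array weights, sex, age, thalamic or striatal list means as covariates, and leaving out animals.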

Additional observations from a re-analysis of the deposited data

Results flagged for a closer look

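Of 26 groups of 4 values examined for the members and their field means, 3 held a value far from the other 3. The cutoff is set to flag about 1 in 20 independent groups of normally distributed values. These groups came from the same 8 arrays, and the field means were built from the members. The members were also chosen with results of these data known, so the count cannot be read against that rate. Wfs1 was at 9.69 in mutant 3 against 8.47 to 8.59 in the other mutants. Pou3f1 was at 9.42 in mutant 3 against 6.76 to 6.99 in the other mutants. Pcp4 was at 9.56 in normal 4 against 11.9 to 12.4 in the other normals. Mutant 3 also had the lowest thalamic mean of the mutants, 6.50, and normal 4 the lowest of the normals, 6.72.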

How the results depend on the processing

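Under 22 alternatives, of which 2 were chosen after seeing the data, 0 of the 10 members passed in limma, and the lowest adjusted p was 0.187 (Coch with array weights). Directions of Pou3f1, Man1a and Prox1 held in all alternatives run. With array weights Neurod6 was at -2.01, Lefty1 was at -0.093 and Dsp at -0.36. With the thalamic mean as a covariate Neurod6 was at 0.55. With the striatal mean as a covariate Bok was at -0.12, Coch at 0.45 and Pcp4 at 0.093. This covariate overlaps with genotype, and the SEs rose with it, from 0.65 to 0.74 for Coch and from 0.67 to 1.16 for Pcp4. Without normal 2, mutant 2 and mutant 4, Neurod6 was at 2.14 and Dsp at 3.10, and without normals 1 and 3 Pcp4 was at 0.48 and the CA3 mean at 0.10, against -0.46 with all arrays. These arrays also held extreme values of the genes concerned (both mutants the lowest Neurod6, both normals the highest Pcp4 and Coch), so the direction of these moves was set by leaving them out. Leaving out 1 animal in turn gave -0.55 to 0.10 for Wfs1, -1.36 to 0.72 for Neurod6 and -0.93 to 0.15 for Pcp4, 0.33 to 0.82 for Bok and -1.91 to -0.93 for Coch, and 0 members passed for genotype or sex. The cause was not tested.

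Over all genes, 12 were higher and 1 lower in mutants. The counts were 18 and 3 with the mean of all probe sets, 7 and 1 without the 40% dimmest genes, 32 and 4 with array weights, 0 and 0 with the striatal covariate, 3 and 1 without normal 2, mutant 2 and mutant 4, and 5 and 0 without normals 1 and 3. Leaving out 1 animal gave 5 to 18 higher and 0 to 22 lower, with 22 lower without normal 2. No paired analysis was possible because the labels number no replicates across the groups. Ages are shared, and with age entered as a random block (correlation -0.24) 0 members passed, each kept its direction, and 10 genes were higher and 1 lower. Dim signal limits Prox1, and Neurod6 and Dsp on the arrays where they lay within the range of absent transcripts.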
